A study of Mus musculus with 48 samples.

Results

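The cerebella of line S46 at 10 months are described here across the autosomal genes, as 3 transgenic against 3 nontransgenic mice. The 6 arrays were taken by their labels, which name the line and the age, out of 48 arrays in the series, and each array held the RNA of 1 cerebellum. The series set 5 mouse lines carrying exon 1 of huntingtin (Htt) against normal littermates, to ask what polyglutamine in the nucleus and outside it contributes to disease in mouse models of Huntington's disease. Animals were taken when a deficit on the rotating rod could first be measured, and in some lines again at a later age with more marked impairment. RNA was hybridised to Affymetrix MG-U74Av2 arrays, and each probe set has 1 signal per array on a linear scale.

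The transgenic S46 mice carried Htt exon 1 with a run of 142 glutamines (142Q) joined to a nuclear localization signal, and the controls of S46 are labelled wild type. Further comparisons used S46 at 3.5 months (4 transgenic and 4 control arrays) and S25 at 3 months (3 and 3), a second line with the nuclear localization signal and 142Q. Of its 3 controls 2 were 2.5 months old. Line A39 was also used (142Q with a nuclear exclusion signal), at 4 months (4 and 4) and at the age titled 10 months (3 and 3), of which 3 mice are described as 10.5 months old. Line A61 (142Q with a nuclear exclusion signal) at 8 months (4 and 4) and line X50 (18Q with a nuclear localization signal) at 16 months (3 and 3) complete the set. A61 controls 2, 3 and 4 are titled as A39 controls at 8 months and were assigned to A61 by their descriptions. The younger S46 transgenic arrays are titled 3 months and described as 3.5 months. The promoter that drove the transgene, the strain and the cells that expressed it are not given in the sources used here. S46 is a single line, so the effect of the protein and of the place of insertion cannot be told apart within it.

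Huntington's disease is caused by a lengthened run of glutamines at the start of the huntingtin protein, and fragments that hold exon 1 collect in the nuclei of neurons. Purkinje cells are the large output neurons of the cerebellar cortex. They handle calcium through metabotropic glutamate receptors, inositol trisphosphate and stores in the endoplasmic reticulum, and they are rich in calcium-binding proteins such as calbindin. Granule cells, far more numerous, supply most of their excitatory input.

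The sex labels and the transcripts disagreed in these 6 arrays. All 6 are labelled female, yet Xist, the transcript of the inactive X chromosome, had signals of 58.4, 33.4 and 34.7 in the 3 transgenic arrays and of 2048.5, 2337.1 and 1843.6 in the controls. The Y-linked gene Eif2s3y read 413.1, 415.6 and 303.9 in the transgenic arrays against 36.7, 8.7 and 22.8 in the controls, and Uty and Kdm5d had the same pattern without overlap. The transcripts thus put 3 transgenic males against 3 control females, and within the comparison sex and genotype cannot be told apart. Over the whole series 3 of 48 arrays went against their sex label, and these were the 3. Values from a model with sex by Xist as a term are given beside the counts that open a comparison. That term was estimated from 26 arrays of 7 groups that held both sexes. It called 0 autosomal probe sets in limma (508, or 7.8%, had an unadjusted p below 0.05). Among the 58 autosomal calls below, the median size of the sex term was 0.0632 on the log2 scale (largest 0.21). The median size of their S46 difference was 0.887. The 58 were picked by their S46 difference, so these sizes cannot weigh sex against genotype.

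**Figure D1:**
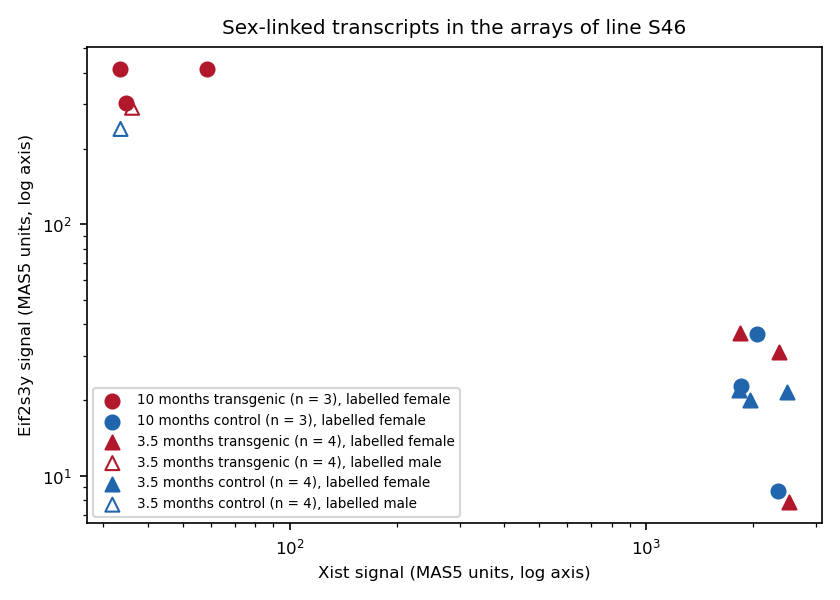
Signal of Xist (x axis, log scale, MAS5 units) against Eif2s3y (y axis, log scale, MAS5 units) in the 14 arrays of line S46, 1 point per array, with colour for genotype and filled points for arrays labelled female. The 3 transgenic arrays at 10 months, labelled female, lie at Xist signals of 33.4 to 58.4, beside the arrays labelled male.

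The record of the scanner also stood out for 1 array. Control 1 carries the record of scan day 1 and another chip lot than the other 5 arrays, which were scanned on day 6. Its values correlated with the mean of the day 6 arrays at 0.579 and with its own record day at -0.165. These are Pearson's r over probe sets, after removing each probe set's mean over all arrays. The day 6 arrays used are of S46 and A39 at 10 months, and the day 1 arrays used are of A39 at 4 months. Scan day, line and age thus cannot be told apart here, and the correlations do not check the record. Because of this record, results are also given without this array. The 2% trimmed mean was 500.22 to 500.24 in the 6 arrays, and pairs of them correlated at 0.945 to 0.976. The 3′ to 5′ signal ratio of Gapdh, a sign of RNA quality, was 0.833 to 0.943 in transgenic and 0.878 to 0.903 in control arrays. Two-sided p-values come from limma and were adjusted by Benjamini and Hochberg over all 7453 probe sets tested. Differences are transgenic minus control means of log2(signal + 18.7), where 18.7 is the 10th percentile of all signals, so they understate changes of dim probe sets.

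In the cerebellum of 10-month-old S46 transgenic mice, transcripts typical of Purkinje cells and of calcium handling were lower. A smaller group, led by the membrane and actin proteins Marcks and Basp1, was higher. Of 6510 autosomal probe sets tested, 58 passed an adjusted p of 0.05 (0.891%), of which 12 rose (0.184%) and 46 fell (0.707%). They stand for 12 genes that rose and 41 that fell. In all 58 the 3 transgenic arrays lay on one side of the 3 controls, which held for 19.2% of all autosomal probe sets. The median difference of all autosomal probe sets was 0.01. With sex by Xist in the model, 43 passed (4 rose and 39 fell), 38 of them among the 58. Without control 1, 38 passed, 37 of them among the 58.

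**Figure D2:**
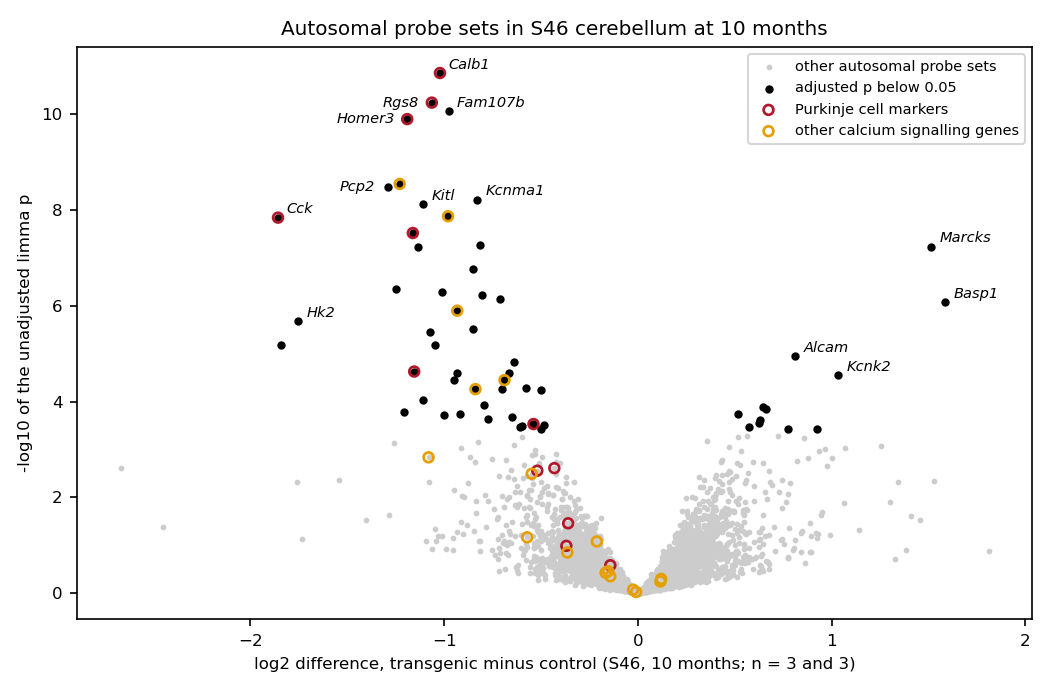
Log2 difference, transgenic minus control (x axis), against minus log10 of the unadjusted limma p (y axis), 1 point per autosomal probe set (n = 3 and 3). The 46 falls reach further up than the 12 rises, and rings mark Purkinje cell markers and other calcium signalling genes, which lie mostly left of 0.

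Purkinje cell markers were the list with the lowest median. As with all lists here, its members were chosen with earlier results of these data known. Of 20 listed genes 12 were measured above the filter, and 7 of these fell (0.714% of autosomal genes fell). None rose, the other 5 did not pass, and all 12 had differences below 0. The list's median was -0.78 against 0.01 over all autosomal genes. The summed signal of the 12 was 29836 to 35539 in transgenic and 53122 to 57632 in control arrays. In whole tissue, fewer Purkinje cells and less RNA per cell cannot be told apart. With sex by Xist as a term 7 members fell, and without control 1, 6 fell.

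Calb1, which encodes the calcium buffer calbindin, had the smallest p of all autosomal probe sets. Its signals were 3919.3, 3238.6 and 3893.1 in the transgenic arrays and 7459.0, 6998.3 and 7986.7 in the controls. Every transgenic array lay far below every control. It fell by 1.02 on the log2 scale to 49.2% of control (SE 0.107, limma adjusted p 5.06e-08, n = 3 and 3), and with sex by Xist as a term the difference was -0.95.

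Rgs8, a regulator of G protein signalling, read 2559.3, 2395.8 and 2939.6 against 5291.0, 5385.4 and 5851.8. The groups did not overlap, and it fell to 47.8% of control (log2 difference -1.06, SE 0.118, limma adjusted p 1.4e-07). Homer3, a scaffold that ties metabotropic glutamate receptors to inositol trisphosphate receptors, read 745.9, 578.2 and 726.0 against 1517.7, 1536.9 and 1675.1, again with no overlap. Its log2 difference was -1.19 (SE 0.136, limma adjusted p 1.86e-07).

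Slc1a6, the glutamate transporter of Purkinje cell spines, read 1414.8, 1465.9 and 1936.1 against 3427.7, 3665.6 and 3653.3, a log2 difference of -1.16 (SE 0.167, limma adjusted p 1.72e-05). Car8 encodes a carbonic anhydrase relative that binds the inositol trisphosphate receptor. It read 3093.7, 3493.6 and 6135.2 against 7872.4, 9072.8 and 10340.6. Transgenic array 3 was nearest to the controls for both genes, and neither gene's groups overlapped.

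Cck, the precursor of the neuropeptide cholecystokinin, had the largest fall among the autosomal calls. Its signals were 302.2, 249.2 and 489.8 against 1222.1, 1217.4 and 1338.6, and it fell to 27.6% of control (log2 difference -1.86, SE 0.258, limma adjusted p 8.88e-06). Parvalbumin (Pvalb), a calcium buffer shared by Purkinje cells and interneurons, moved less: 7728.2, 8503.5 and 8607.6 against 12620.2, 11588.4 and 11894.8. The difference of this probe set was -0.54 (limma adjusted p 0.0332), and without control 1 the adjusted p was 0.178. A dimmer probe set of Pvalb was at -0.80 (limma adjusted p 0.0165). Its adjusted p was 0.1 with sex by Xist as a term and 0.128 without control 1. Members that did not pass were Gad1 at -0.52, Lhx1 at -0.43, Rora at -0.36 and Cacna1a at -0.14.

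Pcp2, a Purkinje cell protein that acts on G protein subunits, has 2 probe sets that disagreed. The dimmer read 492.8, 473.0 and 401.0 against 1064.5, 1204.2 and 1151.0 and fell by 1.29 (SE 0.168, limma adjusted p 3.04e-06). The brighter, which stood for the gene in the list, read 2400.3, 2205.9 and 2025.7 against 2814.1, 3104.0 and 2663.9 and did not pass (-0.37, limma adjusted p 0.795). Both had all transgenic arrays below all controls.

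**Figure D3:**
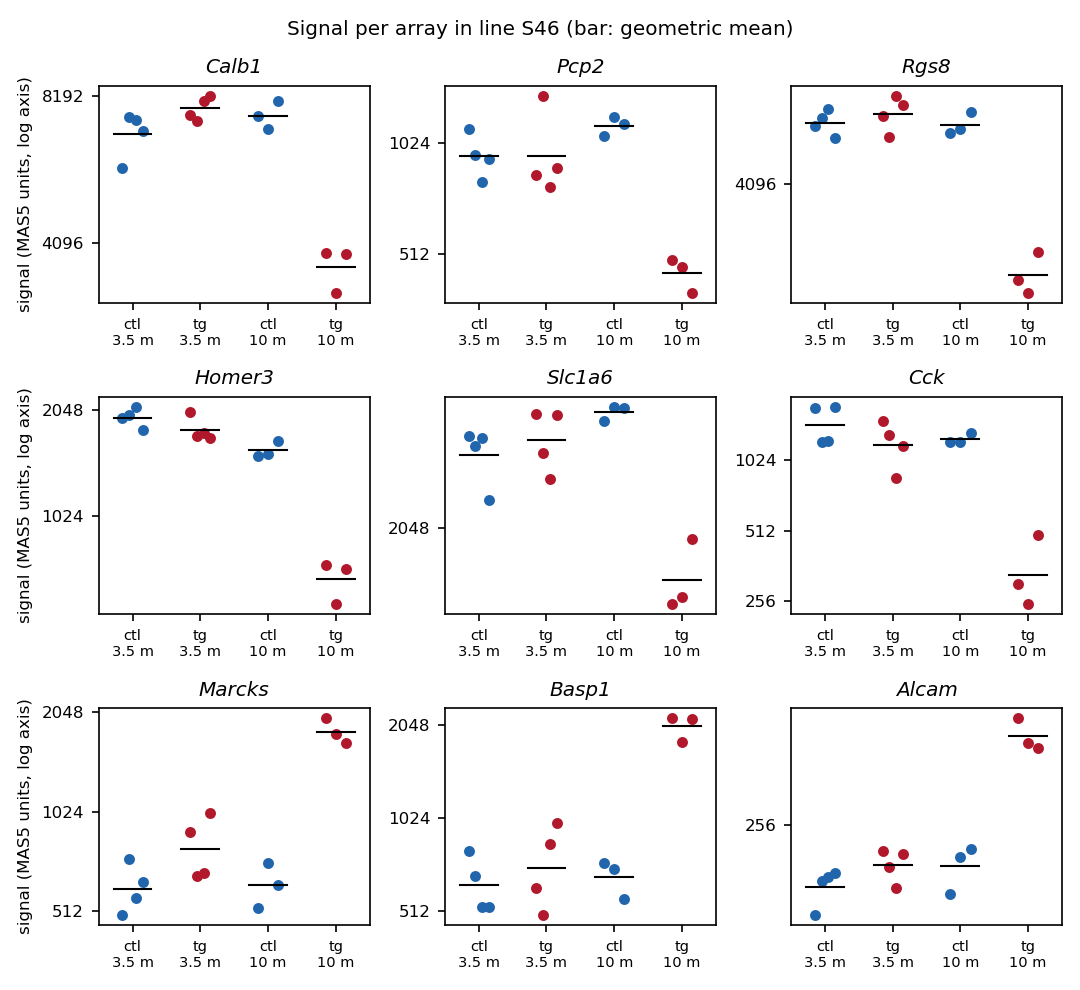
Signal per array (y axis, MAS5 units, log scale) of 9 genes in line S46, in blue for controls and red for transgenic mice at 3.5 months (n = 4 and 4) and 10 months (n = 3 and 3), with bars for geometric means. The transgenic arrays at 10 months stand apart from the controls in each panel, at 3238.6 to 3919.3 against 6998.3 to 7986.7 for Calb1 and at 1646.2 to 1965.0 against 524.8 to 713.7 for Marcks.

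Promoters of 43 called genes were matched to RefSeq (GRCm38.p6), each from 250 bases before to 50 after a gene's start. They are shown because RORalpha, the orphan receptor made by Rora, is a known activator of Pcp2. The capitals mark matches on either strand to AGGTCA (a core bound by ROR and other nuclear receptors), TGACGTCA (cyclic AMP response element), GGGCGG (GC box) or GCGNGGGCG (Egr site), of which the last can overlap a GC box. The first 2 genes fell and the last rose.
Pcp2, chr8:3625498-3625797, minus strand: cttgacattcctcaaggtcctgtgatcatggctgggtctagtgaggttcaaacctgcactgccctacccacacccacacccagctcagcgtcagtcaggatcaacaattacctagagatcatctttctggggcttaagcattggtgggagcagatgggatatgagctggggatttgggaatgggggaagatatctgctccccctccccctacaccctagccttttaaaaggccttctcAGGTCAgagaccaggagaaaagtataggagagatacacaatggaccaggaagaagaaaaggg
Homer3, chr8:70282749-70283048, plus strand: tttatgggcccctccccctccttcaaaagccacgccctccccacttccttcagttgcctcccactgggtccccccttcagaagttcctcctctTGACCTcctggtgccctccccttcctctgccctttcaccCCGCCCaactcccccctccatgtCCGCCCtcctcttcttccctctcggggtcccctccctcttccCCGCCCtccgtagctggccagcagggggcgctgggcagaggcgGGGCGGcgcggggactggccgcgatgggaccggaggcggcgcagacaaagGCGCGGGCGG
Basp1, chr15:25413715-25414014, minus strand: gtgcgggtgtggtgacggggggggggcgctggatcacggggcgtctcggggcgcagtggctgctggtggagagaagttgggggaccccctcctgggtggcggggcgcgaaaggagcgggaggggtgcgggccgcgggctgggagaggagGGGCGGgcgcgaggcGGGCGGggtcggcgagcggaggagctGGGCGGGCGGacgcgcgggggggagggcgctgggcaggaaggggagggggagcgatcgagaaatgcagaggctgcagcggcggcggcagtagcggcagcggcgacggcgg

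This Pcp2 promoter holds 1 AGGTCA, 12 bases before the start, and the one of Homer3 holds 1 on the other strand, 157 bases before it. Among 51 promoters of the genes that fell, 8 held AGGTCA (15.7%), and these belong to 5 of 34 genes, with 3 at Pcp2, of which 2 windows overlap, and 2 at Slc20a1. It was in 16.3% of 31396 autosomal promoters and in 12.7% of the 5741 promoters of tested genes. Among the 14 promoters of genes that rose, 0 held it. GC boxes were in 54.9% of promoters of fallen and 57.1% of risen genes, against 62.6% over tested genes. The cyclic AMP response element was in 1.96% of the promoters of fallen genes (2.96% over tested genes) and the Egr site in 5.88% (10.6%). These are matches of letters, not sites of binding.

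Calcium signalling genes formed the next lowest list. Of 20 members measured 7 fell (0.714% of autosomal genes fell), none rose and 13 did not pass, with a median of -0.45. Calb1 and Pvalb are also in the Purkinje cell list. With sex by Xist as a term 6 fell, and without control 1, 5 fell. The calcium pumps of the endoplasmic reticulum were among them. Atp2a3 read 1471.6, 1049.9 and 1445.7 against 2905.2, 3108.6 and 3274.6, a log2 difference of -1.23 (SE 0.159, limma adjusted p 3.02e-06). Its relative Atp2a2 read 2348.8, 1727.5 and 2141.3 against 4324.7, 3124.9 and 4529.6 (-0.93, SE 0.162, limma adjusted p 0.000376). Control 2 was the lowest control for Atp2a2, still above each transgenic array.

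Inpp5a, the phosphatase that removes inositol trisphosphate, read 3078.1, 2824.9 and 3252.5 against 5864.4, 5997.7 and 6232.3. Its 2 probe sets both fell, by 0.98 (limma adjusted p 8.88e-06) and by 1.01 (0.000184). Ryr1, a calcium release channel, fell by 0.84 (limma adjusted p 0.00868) and Hpcal1, a neuronal calcium sensor, by 0.69 (0.00601). The adjusted p of Ryr1 was 0.125 with sex by Xist as a term and 0.0648 without control 1. The plasma membrane pump Atp2b2 (-0.57), the channel Cacna1g (-1.08) and the kinase Camk4 (-0.55) did not pass. Ryr2 (-0.14), Ryr3 (0.12), Stim1 (-0.01) and the calcineurin subunit Ppp3r1 (-0.03) had values near 0.

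G protein and cyclic nucleotide signalling had 2 falls among 30 members (0.714% of autosomal genes fell) and a median of -0.01. One was Rgs8. The other was Ppp1r17, the substrate of cyclic GMP dependent kinase in Purkinje cells, whose probe sets fell by 1.14 (limma adjusted p 2.54e-05) and by 1.25 (0.000164). Among 17 potassium and sodium channel genes, 1 fell and 1 rose (0.714% of autosomal genes fell and 0.183% rose), and the median was -0.22. Kcnma1, the large-conductance calcium-activated potassium channel, read 978.9, 1102.2 and 1325.4 against 2179.8, 1888.2 and 1998.3, and its difference was -0.83 (SE 0.111, limma adjusted p 4.98e-06). Kcnk2, a leak potassium channel, read 773.6, 629.1 and 562.7 against 256.4, 380.5 and 297.3, a rise of 1.03 (SE 0.217, limma adjusted p 0.00506). Its adjusted p was 0.0521 with sex by Xist as a term and 0.0751 without control 1.

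Further falls lay outside these lists. Kitl, the ligand of the receptor Kit, read 668.4, 641.8 and 813.5 against 1599.2, 1388.5 and 1643.9 (-1.11, SE 0.15, limma adjusted p 5.61e-06). Hk2, a hexokinase, was dim and read 43.2, 56.2 and 48.2 against 186.2, 233.2 and 211.4 (-1.75, limma adjusted p 0.000567). Nab2, a corepressor of Egr transcription factors, read 469.0, 532.3 and 502.8 against 991.7, 1061.8 and 1180.5 (-1.07, limma adjusted p 0.000914). For these 3 genes the groups lay well apart.

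Col18a1, a basement membrane collagen, had 2 of its 4 probe sets past the threshold, at -1.84 (limma adjusted p 0.00161) and -0.78 (0.0271, and 0.0648 without control 1), and the other 2 did not pass (-1.54 and -0.69). Fam107b fell by 0.98 (limma adjusted p 1.57e-07). The receptor phosphatases Ptprm (-0.85) and Ptprr (-0.50), the 14-3-3 protein Ywhah (-0.71) and the guidance protein Sema7a (-0.85) also fell, with limma adjusted p between 6.59e-05 for Ptprm and 0.038 for Ptprr. The adjusted p of Ptprr was 0.154 with sex by Xist as a term and 0.173 without control 1. Itgb1bp1 had 1 probe set that fell by 1.11 (limma adjusted p 0.0141, and 0.134 without control 1), while its other 2 were at -0.92 and 0.04 and did not pass.

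Interneuron and GABA synthesis genes had 2 falls among 8 members (0.714% of autosomal genes fell), and a median of -0.22. Besides Pvalb this was Npy, the precursor of neuropeptide Y, with 349.1, 321.9 and 397.6 against 745.5, 948.3 and 607.4 (-1.05, SE 0.201, limma adjusted p 0.00161). Gad2 (-0.12), Slc32a1 (-0.14) and Nos1 (0.02) did not pass. Among 13 genes known to fall in the striatum in Huntington's disease, Ryr1 alone passed, as a fall (0.714% of autosomal genes fell). Penk (-0.38), Drd2 (-0.25), Pdyn (-0.13), Bdnf (-0.13) and Pde1b (0.09) did not, and the median was -0.17.

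Granule cell markers had a median of -0.04, and 1 of 11 fell (0.714% of autosomal genes fell). This was Cbln1, which granule cells release onto Purkinje cell synapses, with 6382.4, 5481.8 and 5478.9 against 7739.1, 8555.9 and 7984.6 (-0.49, limma adjusted p 0.0348). It did not pass with sex by Xist as a term (0.0796) or without control 1 (0.0813). Gabra6, the receptor subunit that marks granule cells, read 8977.8, 9475.3 and 10153.2 against 9837.0, 8463.1 and 10234.2, and the groups overlapped throughout. The summed signal of the list was 43307 to 46024 in transgenic and 45815 to 48402 in control arrays.

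Marcks and Basp1 led the genes that rose. Both encode membrane-bound proteins that act on the actin cytoskeleton and are abundant in growth cones. Marcks read 1965.0, 1755.3 and 1646.2 against 524.8, 713.7 and 612.8, so that the lowest transgenic array was far above the highest control. It rose by 1.51 on the log2 scale (SE 0.225, limma adjusted p 2.54e-05) and by 1.42 with sex by Xist as a term. One probe set of Basp1 read 2152.3, 1796.7 and 2129.8 against 733.0, 700.6 and 559.0, a rise of 1.59 (SE 0.27, limma adjusted p 0.000263). The other, brighter probe set of Basp1 was at 0.29 and did not pass (0.917), so the rise rests on 1 of 2 probe sets.

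The other rises were smaller. Alcam, an adhesion molecule, read 420.2, 374.0 and 365.3 against 186.3, 221.3 and 229.7 (0.81, SE 0.161, limma adjusted p 0.00253). Uchl1, a deubiquitinating enzyme of neurons, read 2653.9, 2704.4 and 2297.3 against 1521.6, 1655.9 and 1688.4 (0.65, limma adjusted p 0.0182). Tmsb10, which binds actin monomers, read 2174.7, 2116.7 and 2411.8 against 1525.8, 1443.0 and 1516.1 (0.57, limma adjusted p 0.0369). These groups did not overlap, yet Uchl1 and Tmsb10 did not pass with sex by Xist as a term (0.166 and 0.219).

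The rest of the rises were Id1 (0.92), an inhibitor of basic helix-loop-helix factors, Dcn (0.66), a matrix proteoglycan, Suclg2 (0.63), a subunit of a citric acid cycle enzyme, Pld3 (0.63), Tcf25 (0.52) and Fam32a (0.77). None of these 6 passed with sex by Xist as a term, and Marcks, Basp1 and Alcam were the 3 of the 12 that did. Of 2 probe sets of Fam32a 1 passed, and the other was at 0.07. The second probe set of Tcf25 was at 0.33 and did not pass (limma adjusted p 0.981). Among 30 genes of growing axons and cytoskeleton 2 rose (0.183% of autosomal genes rose), Marcks and Tmsb10, with a median of 0.10. Gap43 (0.26), Tubb3 (0.07), Stmn2 (-0.24) and Nefl (-0.84) did not pass.

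**Figure D4:**
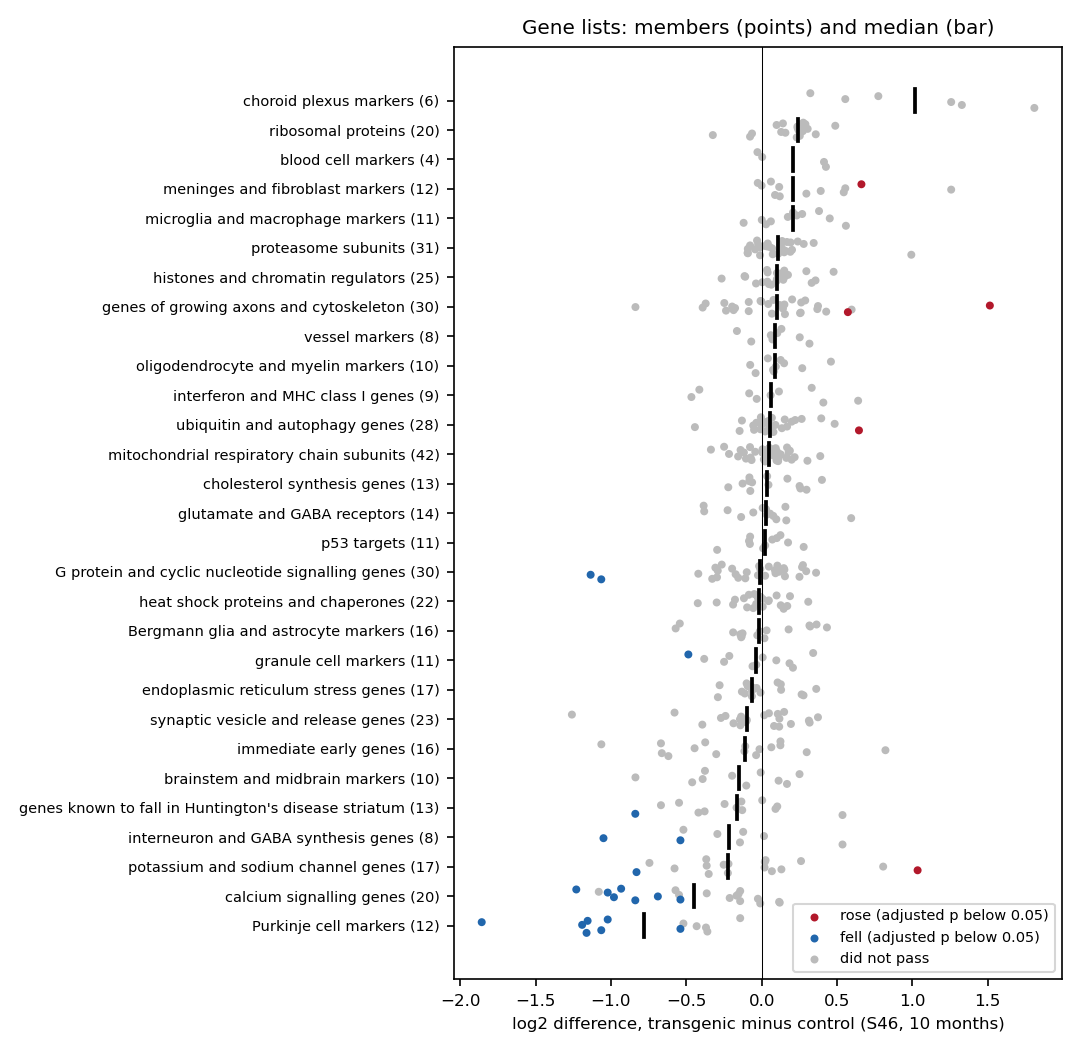
Log2 difference, transgenic minus control (x axis), of each measured member of 29 gene lists (points, 1 probe set per gene, number of members in brackets), with a bar for each list's median and colour for members past an adjusted p of 0.05. Purkinje cell markers (median -0.78) and calcium signalling genes (-0.45) lie lowest and choroid plexus markers (1.02), of which none passed, highest.

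Markers of other cell types moved less, with 1 exception. Choroid plexus markers had a median of 1.02, with 6 of 6 above 0, although 0 passed in limma (2 had an unadjusted p below 0.05). Their summed signal was 8586 to 10912 in transgenic and 3984 to 4983 in control arrays. Ttr, transthyretin, the most abundant transcript of the plexus, read 4632.8, 3380.8 and 4108.6 against 947.5, 1528.1 and 995.1 (1.81, SE 1.18, limma adjusted p 0.841). The groups did not overlap in these 6 arrays, and the SE is that of the model fitted to all 48 arrays. The part that choroid plexus tissue played in the results above was not tested. Dcn, which rose, is in the list of meninges and fibroblast markers (median 0.21, 1 of 12 rose, against 0.183% of autosomal genes).

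Glial lists had no member past the threshold at 10 months. Of 16 Bergmann glia and astrocyte markers 0 passed in limma (median -0.02, with 5 at an unadjusted p below 0.05). Gfap, the filament protein of reactive astrocytes, read 1044.7, 1387.8 and 1374.5 against 856.8, 1725.0 and 922.4, with control 2 the highest of all 6. Of 11 microglia and macrophage markers 0 passed in limma (median 0.21, 10 above 0, with 1 at an unadjusted p below 0.05). C1qa, a complement component made by microglia, read 893.0, 915.1 and 820.4 against 550.8, 812.1 and 665.7 (0.38, limma adjusted p 0.667). Its groups did not overlap, but transgenic array 3 and control 2 were close. Oligodendrocyte and myelin markers had 0 of 10 past the threshold and a median of 0.09, with Mbp at 0.09.

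Housekeeping and stress lists likewise had no calls. Medians were -0.02 for 22 heat shock proteins and chaperones, -0.06 for 17 genes of endoplasmic reticulum stress and 0.11 for 31 proteasome subunits. They were 0.05 for 42 respiratory chain subunits, -0.11 for 16 immediate early genes, 0.02 for 11 p53 targets and 0.24 for 20 ribosomal proteins, of which 17 were above 0. Synaptic vesicle and release genes had a median of -0.10 with 0 of 23 past the threshold in limma and 3 at an unadjusted p below 0.05. Of the same lists, ribosomal proteins had 6 members and immediate early genes 3 at an unadjusted p below 0.05, and the first 4 and the p53 targets 0. The remaining lists had medians between -0.15 (brainstem and midbrain markers) and 0.21 (blood cell markers). Their 1 call was the rise of Uchl1 (0.183% of autosomal genes rose). Mouse Htt itself had probe sets at 0.03 and -0.07, neither past the threshold. Where these probe sets lie in the gene was not used here, so they do not check the transgene.

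The same line at 3.5 months showed none of these calls. Of the 6510 autosomal probe sets 0 passed in limma (0%), with 739 (11.4%) at an unadjusted p below 0.05. At 10 months 471 (7.24%) had an unadjusted p below 0.05 in limma, so the younger age had more such probe sets. The 46 probe sets that fell at 10 months had a median of 0.01 at 3.5 months, where 20 of them lay below 0. The 12 that rose had a median of 0.18, with 11 above 0. The Purkinje cell list had a median of 0.02. The arrays of the 2 ages were scanned on different days, and no array is shared. By label and Xist, transgenic 1 and control 1 at 3.5 months were male and the other arrays of that age female. Sex thus goes with genotype at 10 months but not at 3.5 months. Between the ages, its part cannot be told apart from that of age.

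Calb1 at 3.5 months read 7491.9, 7266.5, 7986.0 and 8197.3 in transgenic and 5846.8, 7403.6, 7326.8 and 6960.2 in control arrays. The groups overlapped, with all transgenic arrays but that at 7266.5 above every control. Rgs8 read 5734.5, 5170.2, 6341.5 and 6060.6 against 5457.5, 5685.0, 5932.2 and 5146.2. These groups overlapped too, with the transgenic arrays at 6341.5 and 6060.6 above every control. Marcks read 888.5, 651.4, 665.3 and 1010.0 against 497.7, 733.7, 560.2 and 626.4. Here 2 transgenic arrays lay above all controls and 2 among them.

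The difference between the effects at the 2 ages was tested directly. It passed in 24 autosomal probe sets (0.369%), and in all 24 the effect at 10 months was the lower one. The smallest adjusted p was that of Calb1, with a difference of -1.19 (95% interval -1.48 to -0.91, limma adjusted p 2.53e-06). Rgs8 (-1.13, adjusted p 2.88e-05), Rmdn3 (-1.21, 7.9e-05), Fam107b (-0.98, 7.9e-05), Inpp5a (-1.20, 9.53e-05) and Kcnma1 (-0.92, 0.000261) followed in limma. Homer3 (-1.08, 0.000498) and Ppp1r17 (-1.32, 0.00057) came next. With sex by Xist as a term 23 passed. No autosomal rise differed between ages past the threshold. Marcks differed by 1.12 (0.52 to 1.73, limma adjusted p 0.0839) and Basp1 by 1.40 (0.68 to 2.13, 0.0637), so neither is shown to differ.

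The falls of S46 at 10 months were also low in the other lines with 142Q, whose arrays are not shared with S46. By label and Xist, the S25 transgenic arrays were male, while S25 controls 1 and 3 were female and control 2 was male. In A39 at 10 months all arrays were male but transgenic 2. A39 at 4 months held both sexes in each genotype, A61 was male but for control 4, and all X50 arrays were male. The part of sex in the overlap was not tested. Of the 46 fallen probe sets, all 46 were below 0 in S25 at 3 months and 40 fell there too, which is 87% of the 46 and 28% of the 143 that fell in S25 (2.2% of autosomal probe sets). In A39 at 10 months all 46 were below 0 and 36 fell, 78.3% of the 46 and 45% of the 80 that fell in A39 (1.23%). In A39 at 4 months 32 of the 46 fell (1.11% of all fell). In A61 at 8 months 7 did (0.2%). In X50 with 18Q, 0 of the 46 passed (2 probe sets passed in all, 0.0307%), and 13 of the 46 were below 0, with a median of 0.12.

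Of the 12 rises, 8 also rose in S25 (1.46% of autosomal probe sets rose there) and 5 in A39 at 10 months (0.63%). Marcks was at 1.24 in S25 (limma adjusted p 0.000268) and at 1.59 in A39 at 10 months (1.19e-05), close to the 1.51 of S46. In X50 it was at 0.38 (0.792). Alcam was at 0.67 in S25 and 0.87 in A39 at 10 months. Id1, Dcn, Suclg2 and Fam32a, by contrast, did not pass in either line, and Fam32a was at -0.48 in A39 at 10 months. Npy, which fell in S46, was at -0.11 in S25 and -0.09 in A39, and the differences between lines did not pass.

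**Figure D5:**
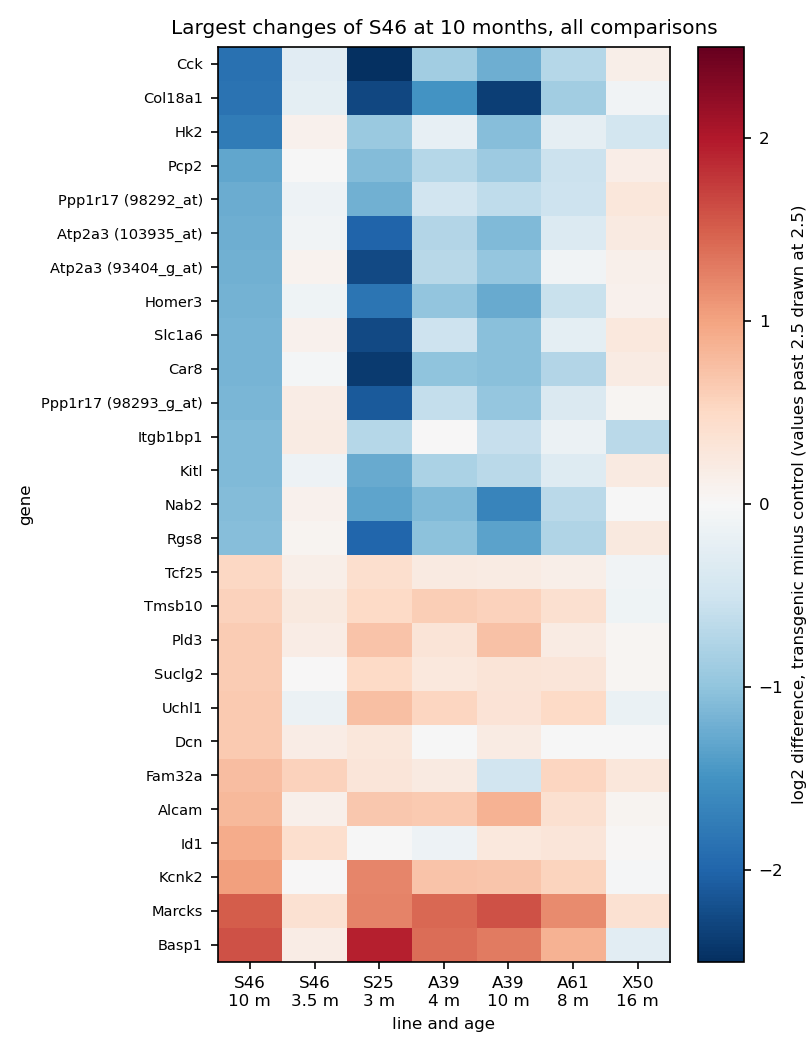
Log2 difference, transgenic minus control (colour, blue lower and red higher, values past 2.5 drawn at 2.5), of the 15 largest falls and 12 rises of S46 at 10 months (rows), in S46 and the other 6 comparisons (columns). The columns of S25 and A39 have the colours of S46 at 10 months in nearly all rows, whereas S46 at 3.5 months and X50 are pale.

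S25 carries the same kind of transgene as S46, and its effect was tested against that of S46 at 10 months although the ages differ. The effects differed in 15 autosomal probe sets (0.23%), and in 16 with sex by Xist as a term. The Purkinje cell list had 7 falls and a median of -0.78 in S46, and 10 falls and a median of -1.66 in S25 (2.27% of autosomal genes fell in S25). Cck was at -1.86 in S46 and -3.48 in S25, a difference of 1.62 (95% interval 0.88 to 2.36, limma adjusted p 0.0369). Calb1 was at -1.02 and -1.82, a difference of 0.80 (0.49 to 1.11, limma adjusted p 0.00824). Rgs8 (difference 0.93, adjusted p 0.00425), Slc1a6 (1.09, 0.0267) and Inpp5a (0.88, 0.028) likewise had the smaller fall in S46 by limma. For Pcp2 the dimmer probe set gave -1.29 and -1.08, a difference of -0.21 (-0.69 to 0.27) that did not pass.

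Fam117a was at -0.17 in S46 and -2.03 in S25, a difference of 1.86 (limma adjusted p 0.00388). Dap was at -0.56 and -2.16 (difference 1.60, adjusted p 0.0127). Glial genes differed the other way. C1qa was at 0.38 in S46 and 1.64 in S25, a difference of -1.26 (-1.80 to -0.72, limma adjusted p 0.0267), and Gfap at 0.18 and 1.18, a difference of -1.0 (-1.48 to -0.53, 0.0462). Mt2, a metallothionein, was at -0.14 and 0.96 (-1.10, 0.013). Among microglia and macrophage markers 0 of 11 rose in S46, 6 of 11 in S25 (1.54% of autosomal genes rose) and 3 of 11 in A39 at 10 months (0.695%). With all other groups left out of the model, 1 probe set differed between S46 and S25 in place of 15, and the cause was not tested. Of the 13 calls flagged for a closer look below, Calb1, Rgs8, C1qa and Gfap among them, 0 passed in that model.

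Against A39 at about the same age, which carries 142Q with a nuclear exclusion signal, the effect of S46 differed in 2 autosomal probe sets (0.0307%), with 182 at an unadjusted p below 0.05. Btbd3 was at -0.06 in S46 and -0.93 in A39, a difference of 0.87 (95% interval 0.55 to 1.19, limma adjusted p 0.0178). Strn was at -0.59 and 0.76, a difference of -1.35 (-1.86 to -0.84, limma adjusted p 0.0178). Neither passed with sex by Xist as a term. The Purkinje cell list had 7 falls and a median of -0.78 in S46, and 9 falls and a median of -0.90 in A39 (1.28% of autosomal genes fell in A39). For Calb1 the difference of effects was -0.05 (-0.36 to 0.26), for Homer3 0.07 (-0.32 to 0.46) and for Marcks -0.07 (-0.72 to 0.57). These intervals leave room for differences of up to the bounds given. For Gfap the difference was -0.76 (-1.24 to -0.29), which did not pass after adjustment (limma adjusted p 0.82).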

How the data were processed

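Cerebellar RNA of 48 mice was measured on Affymetrix MG-U74Av2 arrays. The deposited series table gives each probe set a single linear intensity per array, made with MAS5 per the submitters' processing notes (version not given in the sources used here), and the authors had scaled each array to a trimmed mean near 500.2. The deposited scanner records (unit: other, text) gave scan day, chip lot and station only. Detection calls were not used here, so probe sets were filtered by mean signal alone. Precision is limited by how many mice each group had.

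Arrays were scaled to a common 2% trimmed mean and transformed as log2(signal + 18.7). The 7453 of 12488 probe sets at or above the 40th percentile of mean signal were tested across all genes with limma 3.58.1 (R 4.3.3): 1 mean for each of 14 groups, 34 residual and 3.73 prior degrees of freedom, Benjamini-Hochberg adjustment within each comparison. The 6510 probe sets with 1 symbol on an autosome are described. Lists take the brightest probe set per gene (5466 genes). The model was tested on simulated data.

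Named genes were the 15 largest rises and falls without overlap, up to 4 called members per list, up to 8 per direction in each test of a difference, up to 10 genes also called in S25 or A39, and tissue markers. Other list members are named beside them as values. Members and lists were chosen with earlier results of these data known. Nothing states that arrays of a group came from separate litters. Alternatives covered scaling, pseudocount, filter, prior, array weights, sex, scan day, chip lot, the groups in the model, the replicate number and leaving out arrays. The term for sex by Xist was chosen after seeing the data.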

Additional observations from a re-analysis of the deposited data

Results flagged for a closer look

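In the tests of whether the S46 effect differed between 10 and 3.5 months, these log2 differences of effects passed in limma: Homer3 -1.08, Ppp1r17 -1.32, Rgs8 -1.13, Calb1 -1.19, Inpp5a -1.20, Kcnma1 -0.92, Rmdn3 -1.21 and Fam107b -0.98. For these 8 genes the call held when each array in turn was left out, and for 5 of them with the compared groups alone in the model.

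Between S46 at 10 months and S25 at 3 months the effects differed, with the lower effect in S25, for Slc1a6 (1.09), Rgs8 (0.93), Calb1 (0.80), Inpp5a (0.88), Fam117a (1.86), Dap (1.60), Btbd3 (0.74) and 1 probe set of Col18a1 (1.72). They differed the other way for Gfap (-1.0), C1qa (-1.26), Mt2 (-1.10), Pelo (-1.03) and Rnf11 (-0.69). Of these 13 calls 2 held in every fit that left out 1 array, and 0 with the compared groups alone in the model.

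Between S46 and A39 at about 10 months Btbd3 (0.87) and Strn (-1.35) differed. Neither call held in every fit that left out 1 array.

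In 1 of 8 sets of 4 signals examined (4 genes in the transgenic and in the control arrays of S46 at 3.5 months), 1 array stood far from the rest: the Pcp2 signal of 1369.6 in a transgenic S46 array at 3.5 months. Chance gives such an array in about 1 of 20 such sets.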

How the results depend on the processing

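Of 58 autosomal probe sets called at 10 months, the count stayed within 39 to 63 under other scalings, pseudocounts, filters, a robust prior, sex, scan day, chip lot or a model of the compared groups alone. It was 317 with array weights (141 higher, 176 lower), 31 with arrays of S46 only and 34 (without transgenic 2) to 53 (without transgenic 3) when 1 array was left out, with 35 without transgenic 1, 37 without control 3 and 38 without control 1. The 24 differences between ages became 72 with array weights, 5 with S46 or the compared groups alone, and 17 to 30 without 1 array. The 15 differences from S25 became 40 with array weights, 1 with the compared groups alone and 4 (without S25 transgenic 2) to 17 without 1 array. The 2 differences from A39 became 26 with array weights, 1 with a filter at the 60th percentile, 1 with scan day or chip lot, 0 with sex by Xist or the compared groups alone and 0 to 2 without 1 array. Of 37 named calls at 10 months, 21 held in every fit that left out 1 array, 25 with sex by Xist and 18 with the compared groups alone, where 26 of the 58 passed, and no named difference reversed. With the replicate number as a replicate block the counts were 4, 0, 1 and 0. In S46 at 10 months the deviations of same-numbered arrays correlated at -0.0923, 0.0781 and 0.0626. Those of other-numbered arrays correlated at -0.152 to 0.127. With 3 arrays per group these values cannot decide whether the numbers pair the arrays, and the other groups were not checked. The causes of these changes were not tested.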

Other observations

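Among called probe sets outside the autosomes, 1 was X-linked: Tmsb4x, which binds actin monomers as Tmsb10 does, was higher by 0.54 (limma adjusted p 0.0234), in transgenic arrays that carry male transcripts. A further 15 called probe sets had no single symbol and are not named.

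The scanner record of an A39 control at 4 months (replicate 2) also stood apart, with scan day 6 in place of the day 1 of its group. Its values correlated at -0.239 with the day 6 arrays, at 0.253 with those of day 1 and at 0.331 with those of day 2. Line and age change with scan day here too, so these correlations do not check the record.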
